A study of Homo sapiens with 240 samples.

Results

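Antisense transcripts named after the protein-coding gene they face, with symbols ending in -AS1, were followed across 240 libraries of HEK 293T cells, a human embryonic kidney line. Of 27234 genes in each table, 937 carry such a name, and 313 of them reached 1 TPM (a level corrected for transcript length and for the library) in at least 3 libraries of at least 1 of the 5 tables. The number that reached this level was 280 in the AMPK table, 257 in the FNIP1 table, 276 in the TFEB and TFE3 table, 271 in the ESRRA table and 278 in the PGC1A table, and 233 reached it in all 5. The set was chosen by name and level, and selected on measured values in that several members were higher with the compound 991 at 4 h, so the 4 h values with 991 are given as descriptions only, with no test. Tests at the other times use the same DMSO libraries as that choice.

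An antisense RNA is transcribed from the strand opposite a neighbouring gene. Some start beside the promoter of that gene and run away from it, which is called divergent, and others lie across its body. Most are made at low levels, many are removed quickly by the nuclear RNA exosome, and a few have known jobs, such as hosting small nucleolar RNAs or acting on the gene they face. AMPK, the kinase this study is about, senses low cellular energy. It phosphorylates FNIP1, the partner of folliculin at the lysosome, and acts on lysosomal and mitochondrial genes through TFEB, TFE3, ESRRA and the coactivator PGC-1α.

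All cells were HEK 293T, with 3 libraries in each of 80 groups. In the AMPK experiment, AMPK KO and AMPK WT cells received DMSO or 1 of 4 compounds for 2, 4, 8 or 16 h. These were 991, which activates AMPK directly, CCCP, which uncouples mitochondrial respiration, and phenformin and rotenone (Phen and Rot in the labels), which block respiratory complex I. In the FNIP1 experiment, cells in which FNIP1 had been knocked out carried either FNIP1 SA5, with all 5 AMPK phosphosites changed to alanine, or WT FNIP1, and received 991 for up to 16 h. TFEB/TFE3 double knockout (DKO) and WT cells, ESRRA KO and WT cells, and cells given siRNA to PGC1A or control siRNA received 991 for up to 24 h. Each arm has DMSO libraries at 0 h only, so every change against DMSO also carries the time in culture. All comparisons of an arm share its 3 DMSO libraries. The labels do not say whether replicates were separate cultures or whether each knockout line is 1 clone, and p-values therefore measure only the spread between these libraries. In bulk RNA, fewer cells with a transcript and less of it per cell cannot be told apart.

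The labels of 6 libraries disagree. For 3 AMPK WT libraries the wording of the title names 991 at 2 h while the treatment tag and the sample code name phenformin, and for another 3 the wording gives CCCP for 16 h while the time tag and the code give 4 h. They were placed by tag and code, as phenformin at 2 h and CCCP at 4 h. RNA of the targeted genes was still listed in the altered arms. Under DMSO, PRKAA1 stood at 2.16, 2.80 and 2.67 TPM in AMPK KO cells and at 6.27, 7.15 and 7.41 TPM in AMPK WT cells. PPARGC1A stood at 0.094, 0.042 and 0.031 TPM with its siRNA and at 0.327, 0.265 and 0.34 TPM with control siRNA. ESRRA was at 4.44 to 5.69 TPM in KO cells and at 8.01 to 8.27 TPM in WT cells, while TFEB in DKO cells (1.59 to 1.91 TPM) overlapped WT cells (1.80 to 2.22 TPM). FNIP1 was at 5.47, 179 and 172 TPM in the SA5 arm under DMSO, so replicate 1 of that group stands apart from the others. Genes that mark this line were at 260 to 842 TPM in sum in every library, while summed levels reached at most 0.182 TPM for 3 endothelial markers, 0.122 TPM for 3 of keratinised epithelium, 0.884 TPM for 2 of liver and 1.23 TPM for 2 of muscle. The 5 blood markers summed to 0.379 to 2.56 TPM, with 1 of them at 1 TPM in at least 3 libraries of each table, and the 4 fibroblast markers to 1.77 to 8.2 TPM, with 1 or 2 of them at that level. PTPRC, PECAM1, CDH5, KRT5 and KRT1 were at or under 0.1 TPM in every library.

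The promoters of 5 members that changed the same way with all 4 compounds at 16 h in AMPK WT cells are shown. Others that did so, among them LBX1-AS1 and THUMPD3-AS1, are not shown. Whether these sequences have a part in the responses was not tested. ZBED3-AS1, ELOA-AS1 and LIPE-AS1 were higher at 16 h with each of the 4 compounds in AMPK WT cells, and MAN1B1-AS1 and NIPBL-AS1 were lower with each. The sequences are from RefSeq on GRCh38.p14, run 5′ to 3′ on the strand of the gene, and hold 250 bases before and 50 after its start. Capitals mark CCAAT, the ETS core CCGGAAG and GCATGCG (part of the site of the respiratory gene regulator NRF1), searched on both strands. They lie at chr5:77086465-77086764 on the plus strand for ZBED3-AS1, chr1:23778248-23778547 on the minus strand for ELOA-AS1, chr19:42396898-42397197 on the plus strand for LIPE-AS1, chr9:137086768-137087067 on the minus strand for MAN1B1-AS1 and chr5:36876645-36876944 on the minus strand for NIPBL-AS1.
ZBED3-AS1: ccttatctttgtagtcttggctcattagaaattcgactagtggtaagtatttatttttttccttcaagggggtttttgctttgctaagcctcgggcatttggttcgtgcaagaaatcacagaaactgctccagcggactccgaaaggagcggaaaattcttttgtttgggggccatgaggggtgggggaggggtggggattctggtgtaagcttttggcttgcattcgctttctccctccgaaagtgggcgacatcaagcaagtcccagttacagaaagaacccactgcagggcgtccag
ELOA-AS1: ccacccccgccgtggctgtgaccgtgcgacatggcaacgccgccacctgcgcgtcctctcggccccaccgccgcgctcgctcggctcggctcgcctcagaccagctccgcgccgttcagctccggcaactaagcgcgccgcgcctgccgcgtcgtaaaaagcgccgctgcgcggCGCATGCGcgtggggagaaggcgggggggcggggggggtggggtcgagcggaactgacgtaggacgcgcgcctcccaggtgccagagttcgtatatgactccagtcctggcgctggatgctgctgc
LIPE-AS1: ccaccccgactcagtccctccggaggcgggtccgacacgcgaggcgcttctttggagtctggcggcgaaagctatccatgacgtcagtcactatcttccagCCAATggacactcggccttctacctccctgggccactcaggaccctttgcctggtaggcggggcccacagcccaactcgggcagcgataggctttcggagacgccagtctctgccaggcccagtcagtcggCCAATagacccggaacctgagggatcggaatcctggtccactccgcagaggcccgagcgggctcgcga
MAN1B1-AS1: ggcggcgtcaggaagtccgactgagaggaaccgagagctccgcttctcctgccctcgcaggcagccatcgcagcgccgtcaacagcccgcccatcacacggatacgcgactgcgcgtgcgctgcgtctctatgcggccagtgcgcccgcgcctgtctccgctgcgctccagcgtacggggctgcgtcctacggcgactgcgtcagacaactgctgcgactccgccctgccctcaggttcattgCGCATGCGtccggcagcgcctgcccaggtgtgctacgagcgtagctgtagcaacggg
NIPBL-AS1: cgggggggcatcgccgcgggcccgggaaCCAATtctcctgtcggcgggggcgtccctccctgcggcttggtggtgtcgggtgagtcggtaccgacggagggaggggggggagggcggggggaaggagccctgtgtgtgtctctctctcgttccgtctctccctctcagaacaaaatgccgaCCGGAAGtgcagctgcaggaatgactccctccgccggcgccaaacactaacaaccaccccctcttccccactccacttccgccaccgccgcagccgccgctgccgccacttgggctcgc

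RefSeq promoters could be matched to 252 of the 313 members, 227 of them with a start within 100 bases of that in the tables. Their median GC content was 67%, against 58.7% over all 35116 promoters of the same length, and the median number of CpG pairs was 27 against 14. GCATGCG was found in 8.33% of the member promoters and 3.91% of all promoters, and CCGGAAG in 16.3% and 10.3%. CACGTG, the E-box at the core of sites for TFEB and TFE3, was in 12.3% of member promoters and 7.26% of all, AAGGTCA, the core of sites for ESRRA, in 2.38% and 3.92%, and TTGCATC, part of the ATF4 site, in 1.19% and 2.4%. CCAAT was in 31.3% of member promoters and 34.6% of all, and TATAAA in 3.57% and 11.5%. These shares are descriptions of letters in the window and were not matched on base composition, in which the 2 sets differ. In the printed windows, the promoter of LIPE-AS1 holds CCAAT at 2 places and that of ZBED3-AS1 none of the 7 motifs.

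By position, 151 members overlapped the gene they are named after, 107 were divergent from it with starts within 2 kb, 51 lay otherwise, and 4 had no partner in the tables. The divergent starts lay a median of 145 bp apart. NIPBL-AS1 (GRCh38, chromosome 5, 36871361 to 36876694) and MAN1B1-AS1 (chromosome 9, 137084946 to 137086817) are divergent, with 65 and 110 bp between the starts. They face the genes of the cohesin loader and a mannosidase of the secretory pathway. LIPE-AS1 (chromosome 19, 42397148 to 42652355), ELOA-AS1 (chromosome 1, 23760382 to 23778297), ZBED3-AS1 (chromosome 5, 77086798 to 77148351) and THAP9-AS1 (chromosome 4, 82893452 to 82900916) overlap their partners, and THUMPD3-AS1 (chromosome 3, 9388845 to 9397494) lies otherwise.

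Most members were expressed at low levels. The median of their mean TPM was 1.41 in the AMPK table and 1.85 to 2.02 in the other tables, and the middle 50% of members in the AMPK table lay between 0.657 and 2.72 TPM. LRRC75A-AS1, which hosts small nucleolar RNAs, was the highest in every table at a mean of 457 to 574 TPM. The next highest in each table was at 36.3 to 46.2 TPM, and this was VPS9D1-AS1 at 45.2 TPM in the AMPK table. In the AMPK table, 25 members passed through libraries of 1 arm only, and 11 members just inside the threshold had a median of 0.379 TPM while 7 just outside had 0.302 TPM.

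The sources used here do not say whether reads were counted by strand, so the overlap with sense exons was checked. In the annotation, of 262 members with exons, 174 shared no exon base with a gene on the other strand. The levels were compared for 12 genes named -AS1, whatever their own level, with at least 30% of their exon bases under a sense gene above 20 TPM. In the AMPK table, 10 of these 12 stood below 10% of that gene's level scaled to the overlapped share. Only ELOA-AS1, LAMTOR5-AS1, PITPNA-AS1 and VIM-AS1 among them were at the level of members, whose lowest mean was 0.194 TPM. The rest, which are not members, had means of at most 0.0883 TPM and at most 0.531% of the scaled sense level. SMARCA5-AS1, with 66.7% of its exon bases under SMARCA5 at 32.8 TPM, had the mean of 0.0883 TPM. Few reads from the sense exons were therefore counted for these genes. LAMTOR5-AS1 stood at 4.44% and VIM-AS1 at 0.86%. VIM-AS1 was at 1.78 TPM beside VIM at 296 TPM. ELOA-AS1 shares 71.7% of its exon bases with ELOA and stood at 4.27 TPM beside ELOA at 20.1 TPM, and PITPNA-AS1 shares 69.9% with PITPNA and stood at 20.8 TPM beside PITPNA at 27.9 TPM, so the levels of both are uncertain.

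In the following, a change is a difference in log2(TPM + 1), a scale that understates the change of transcripts near or under 1 TPM, given with its standard error. Calls are from limma with an adjusted p (Benjamini-Hochberg, over all genes of a table) under 0.05. The spread of a gene is estimated over all groups of its table, not from the groups compared alone. Medians over members are set beside the median of protein-coding genes of like level, those within the middle 50% of the members' levels (1980 genes in the AMPK table). Changes of many members are compared with the share of all tested genes called in the same direction.

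Most members were lower within 2 h of each mitochondrial poison in both AMPK arms. With phenformin at 2 h, 216 of 280 members were lower in AMPK KO cells (37.2% of all genes) and 209 in AMPK WT cells (31% of all genes), and 4 and 2 were higher (21.9% and 23.7% of all genes). At 4 h, 239 members were lower in KO cells (39.7% of all genes) and 230 in WT cells (37.5%). The median change at 4 h was -0.606 in KO cells and -0.65 in WT cells, beside -0.178 and -0.146 for protein-coding genes of like level. Other non-coding RNAs of like level had a median of -0.428 in WT cells.

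The 3 AMPK KO libraries at 4 h of phenformin had medians of -0.57, -0.65 and -0.61 against the mean of their DMSO libraries, and the DMSO libraries themselves stood at 0.17, -0.10 and -0.06. In WT cells the phenformin libraries stood at -0.48, -0.72 and -0.67 and the DMSO libraries at 0.10, -0.10 and 0.01. The treated libraries lie below every DMSO library in both arms. Leaving out LRRC75A-AS1, the members summed to 530, 477 and 501 TPM with phenformin and 1128, 871 and 909 TPM with DMSO in KO cells, and to 720, 564 and 587 TPM with phenformin and 1209, 998 and 1105 TPM with DMSO in WT cells. The sums do not overlap between treatments in either arm.

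CCCP and rotenone gave the same early direction. At 2 h of CCCP, 208 members were lower in KO cells (38% of all genes) and 192 in WT cells (32.5%), with medians of -0.469 and -0.44 (protein-coding -0.156 and -0.093). With rotenone at 2 h, 201 members were lower in KO cells (30.6% of all genes) and 199 in WT cells (30.2%), with medians of -0.429 and -0.401 (protein-coding -0.116 and -0.093). Other non-coding RNAs of like level had 2 h medians of -0.315 (KO) and -0.28 (WT) with CCCP, and -0.327 and -0.306 with rotenone. At 4 h, 211 members in KO cells and 188 in WT cells were lower with CCCP (42.1% and 35.3% of all genes), and 183 and 194 with rotenone (28.4% and 28.5%). At both 2 and 4 h, 161 members in KO cells and 142 in WT cells were lower with all 3 poisons, which is 57.5% and 50.7% of the members and compares with 17.2% and 16.2% of all genes. The 3 poisons share the DMSO libraries of each arm, so these counts are not independent of each other.

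**Figure D1:**
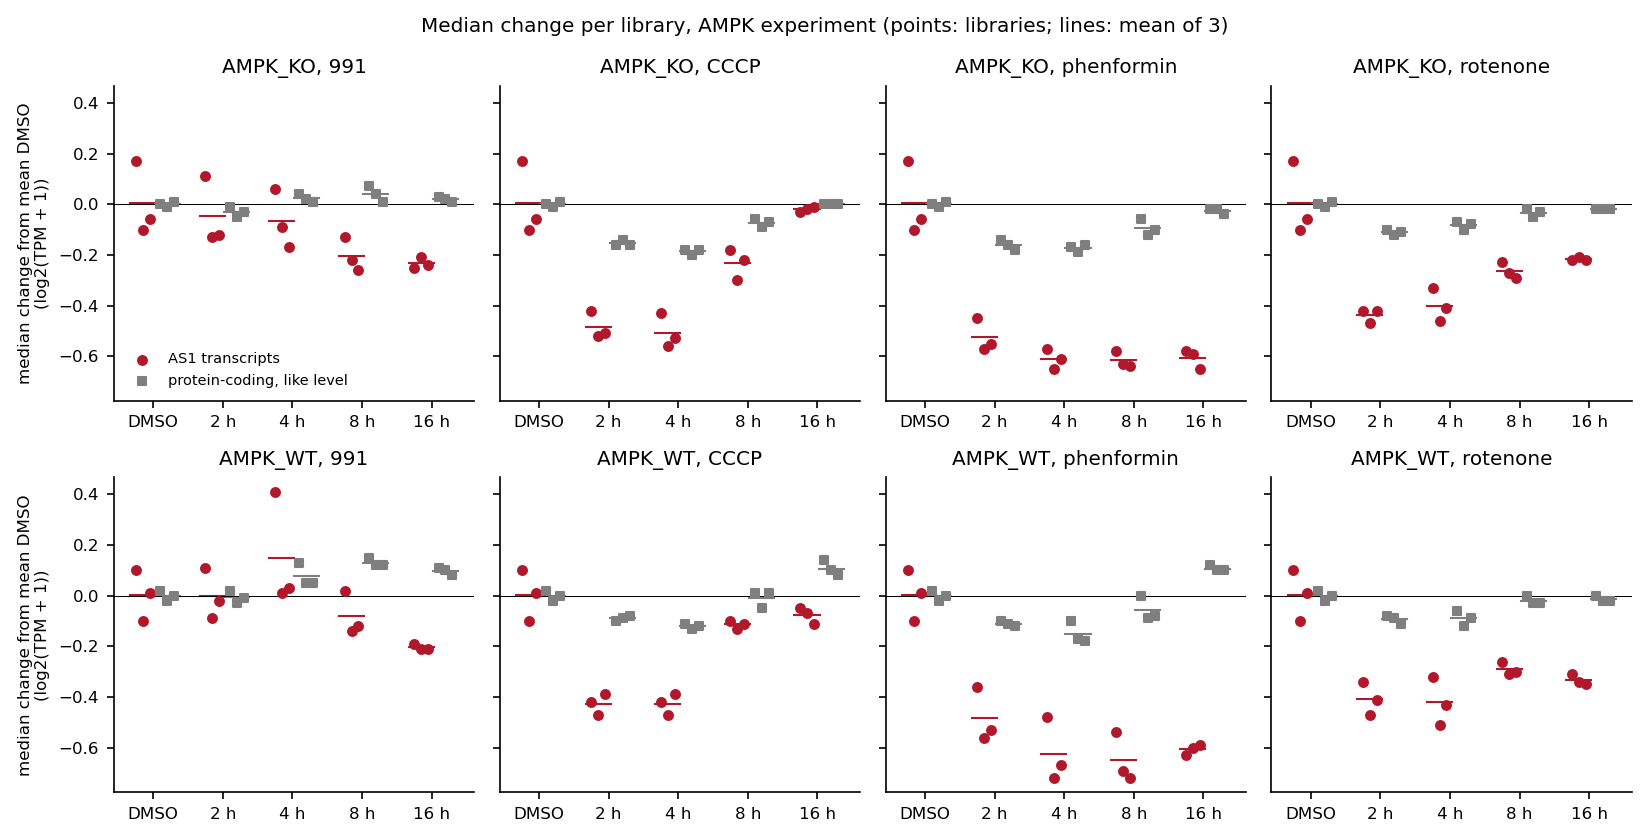
Median change of the 280 -AS1 members (red circles) and of 1980 protein-coding genes of like level (grey squares) in each library of the AMPK table, as log2(TPM + 1) minus the mean of the DMSO libraries of the arm, with AMPK KO in the top row and AMPK WT in the bottom row and time in hours along the axis. The members sit near -0.6 with phenformin at 4 to 16 h, return towards 0 with CCCP by 16 h, and 1 of 3 AMPK WT libraries at 4 h of 991 stands at 0.41.

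From 8 h on the poisons gave different counts. At 8 h, 226 members in each arm were lower with phenformin (37.5% of all genes in KO and 36% in WT cells), 124 in KO and 89 in WT cells with CCCP (31.8% and 29.8%), and 136 and 146 with rotenone (27% and 27.3%). With phenformin the members stayed low, with medians of -0.593 in KO cells and -0.617 in WT cells at 16 h (protein-coding -0.03 and 0.099) and 214 and 208 members lower (37.7% and 34.9% of all genes). With rotenone at 16 h, 122 were lower in KO cells and 159 in WT cells (27.9% and 29.2% of all genes), with medians of -0.214 and -0.326 (protein-coding -0.024 and -0.017). With CCCP the medians were -0.019 in KO cells and -0.083 in WT cells, and the calls were split into 74 higher and 75 lower in KO cells (39.6% and 29.3% of all genes) and 70 higher and 98 lower in WT cells (44.1% and 26.6%). Protein-coding genes of like level had medians of -0.003 in KO cells and 0.108 in WT cells at that time. Other non-coding RNAs of like level had medians of -0.453 and -0.391 with phenformin at 16 h in KO and WT cells. Theirs were -0.176 and -0.189 with rotenone and -0.088 and -0.098 with CCCP. Over all 4 times, 54 members in KO cells and 60 in WT cells were lower with each poison at each time, 19.3% and 21.4% of the members beside 7.01% and 8.09% of all genes.

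Some of the largest falls were seen with phenformin at 16 h. EXOC3-AS1, which faces a subunit of the exocyst, had 0.536, 0.75 and 0.62 TPM with phenformin and 12.4, 9.06 and 9.35 TPM with DMSO in KO cells, a change of -2.77 ± 0.16 (limma, adjusted p = 4.9e-26). In WT cells it had 0.614, 0.463 and 0.42 TPM with phenformin and 11.1, 8.81 and 8.86 TPM with DMSO (-2.81 ± 0.16, limma, adjusted p = 1.8e-26). Every treated library lies below every DMSO library, and the difference between the arms was 0.04 ± 0.23 (limma, adjusted p = 0.94). RPARP-AS1 and TMEM147-AS1 changed by -2.77 and -2.67 in KO cells and by -2.78 and -2.64 in WT cells, with no overlap of the groups.

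At 16 h, 62 members in KO cells and 87 in WT cells were lower with all 4 compounds, 22.1% and 31.1% of the members beside 12% and 14.7% of all genes. Among those with the largest falls in WT cells were THUMPD3-AS1, MAN1B1-AS1 and NIPBL-AS1. THUMPD3-AS1, beside a gene for a tRNA methyltransferase, had 0.579, 1.04 and 0.703 TPM with phenformin and 11.2, 5.67 and 6.81 TPM with DMSO in KO cells (-2.29). In WT cells it had 1.24, 0.992 and 1.09 TPM with phenformin, 3.97, 3.63 and 3.35 TPM with 991 and 15.6, 9.33 and 11.9 TPM with DMSO (-2.63 ± 0.21 with phenformin, limma, adjusted p = 5.1e-19, and -1.49 with 991). The phenformin libraries are the lowest, the 991 libraries lie between, and no group overlaps another. NIPBL-AS1, whose promoter is printed above, had 0.462, 0.346 and 0.454 TPM with phenformin and 7.88, 3.81 and 4.63 TPM with DMSO in KO cells (-2.13). In WT cells it had 0.5, 0.454 and 0.456 TPM with phenformin and 9.15, 5.28 and 6.88 TPM with DMSO (-2.44 ± 0.20, limma, adjusted p = 4.1e-18). MAN1B1-AS1 changed by -1.96 in KO cells and by -2.13 in WT cells, where its 3 phenformin libraries were at 0.095, 0.094 and 0.048 TPM and its DMSO libraries at 4.34, 3.10 and 3.78 TPM. For these members, too, each treated library is below each DMSO library.

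**Figure D2:**
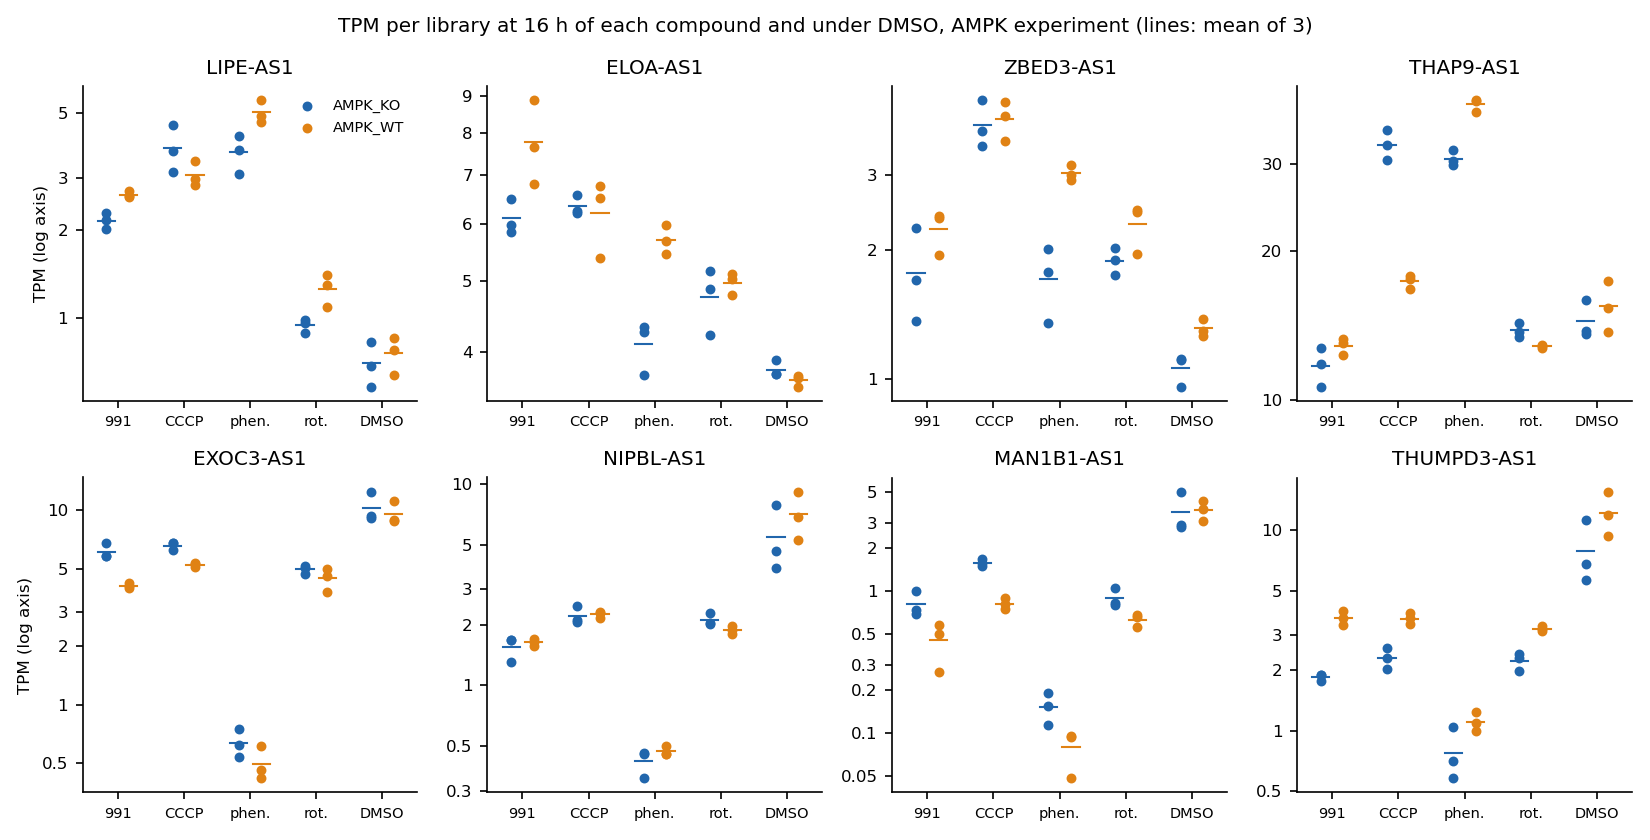
TPM of 8 members in each library at 16 h of each compound and under DMSO (AMPK KO in blue on the left of each pair, AMPK WT in orange, logarithmic axis). LIPE-AS1 and ZBED3-AS1 lie above DMSO with 991, CCCP and phenformin, while EXOC3-AS1, NIPBL-AS1, MAN1B1-AS1 and THUMPD3-AS1 are lowest with phenformin.

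Against this direction, 9 members in WT cells and 4 in KO cells were higher at 16 h with each of the 4 compounds, 3.21% and 1.43% of the members beside 25.3% and 17.9% of all genes. LIPE-AS1, which spans the gene of hormone-sensitive lipase, had 3.74, 4.18 and 3.10 TPM with phenformin and 0.582, 0.683 and 0.829 TPM with DMSO in KO cells (1.46). In WT cells it had 4.68, 4.89 and 5.53 TPM with phenformin and 0.64, 0.777 and 0.855 TPM with DMSO (1.78, limma, adjusted p = 5.0e-26). All phenformin libraries lie above all DMSO libraries. Its change at 16 h of 991 was 0.89 in KO cells and 1.05 ± 0.1 in WT cells (limma, adjusted p = 3.4e-14 in WT cells), and the 2 responses differed by -0.16 ± 0.15 (limma, adjusted p = 0.53). ZBED3-AS1 had 4.10, 3.59 and 4.43 TPM with CCCP and 1.38, 1.26 and 1.30 TPM with DMSO in WT cells (1.12), with 0.48, 0.80 and 0.51 for 991, phenformin and rotenone. ELOA-AS1, whose level is uncertain as stated, changed by 0.91, 0.63, 0.52 and 0.36 with 991, CCCP, phenformin and rotenone in WT cells, and LBX1-AS1 by 0.63, 0.81, 0.61 and 0.48. In KO cells, ELOA-AS1 changed by 0.09 with phenformin (limma, adjusted p = 0.47).

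THAP9-AS1 and a pair of hosts of small nucleolar RNAs, chosen after their values were seen, were also higher with phenformin. THAP9-AS1 had 30.5, 32.1 and 29.9 TPM with phenformin and 15.9, 13.8 and 13.6 TPM with DMSO at 16 h in KO cells (1.04), and 38.2, 40.4 and 40.4 TPM with phenformin and 17.4, 13.7 and 15.4 TPM with DMSO in WT cells (1.31 ± 0.07). LRRC75A-AS1 had 455, 467 and 482 TPM with phenformin and 361, 343 and 342 TPM with DMSO in KO cells (0.42), and 601, 601 and 609 TPM with phenformin and 432, 425 and 435 TPM with DMSO in WT cells (0.49 ± 0.03). EPB41L4A-AS1, another host, changed by 0.76 in KO cells and by 0.87 ± 0.09 in WT cells (limma, adjusted p = 4.0e-15). No phenformin library of THAP9-AS1 or LRRC75A-AS1 overlaps the DMSO libraries of its arm.

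**Figure D3:**
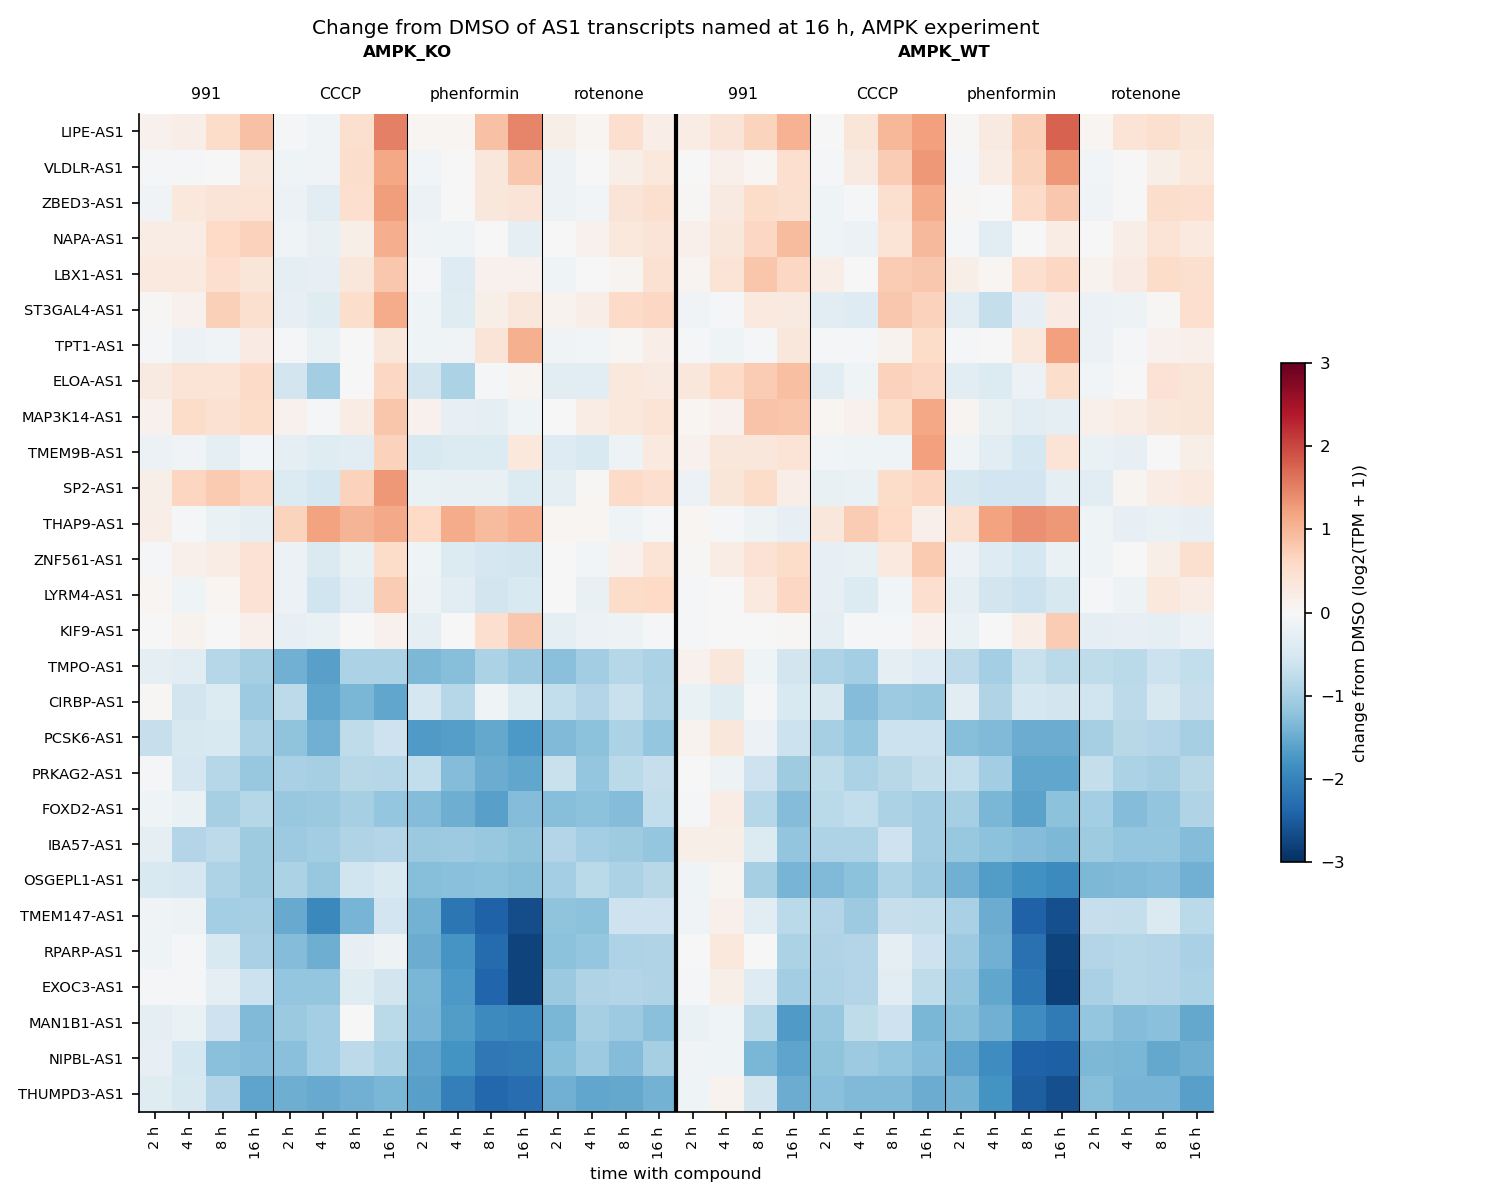
Change of 28 members named at 16 h, shown at 2, 4, 8 and 16 h of each compound in the AMPK table, as the difference in log2(TPM + 1) from DMSO of the same arm (AMPK KO on the left, AMPK WT on the right, blue lower and red higher). Phenformin gives the deepest falls in both arms, to -2.81 for EXOC3-AS1 in WT cells, and LIPE-AS1 is higher with each compound in WT cells.

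A panel of 16 members with published roles, taken whatever their values, was split in the same way, and 15 of them passed the filter in the AMPK table (HOXA11-AS1 did not). At 4 h of phenformin, 12 of the 15 were lower in KO cells (39.7% of all genes) and 9 in WT cells (37.5%). ZEB1-AS1, divergent from the gene of the mesenchymal repressor ZEB1, changed by -1.27 at 4 h in WT cells. At 16 h it had 0.603, 0.502 and 0.455 TPM with phenformin and 4.99, 2.92 and 3.30 TPM with DMSO (-1.62), so that the groups are well apart. GABPB1-AS1, beside the gene of an ETS factor subunit, changed by -0.99 at 4 h and -1.27 at 16 h, and FGD5-AS1 by -0.73 and -0.57. NNT-AS1, beside the gene of the mitochondrial transhydrogenase, had 1.92, 1.64 and 1.46 TPM at 4 h of phenformin, 4.33, 4.42 and 4.29 TPM at 16 h, and 3.02, 2.26 and 2.84 TPM with DMSO in WT cells. It was lower at 4 h (-0.47) and higher at 16 h (0.53, limma, adjusted p = 2.7e-08). OIP5-AS1, the human counterpart of the microRNA-binding RNA Cyrano, gave -0.12 at 4 h (limma, adjusted p = 0.082) and 0.35 at 16 h (limma, adjusted p = 1.5e-06). TTN-AS1 gave 0.18 at 4 h (limma, adjusted p = 0.083).

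The genes that the members face had medians near 0 at 4 h of phenformin, where the members were lower. Among 244 pairs measured in the AMPK table, the members had a median change of -0.634 and their partners -0.005 in KO cells at 4 h of phenformin, and -0.66 and -0.007 in WT cells. In WT cells, 88 partners were higher, 81 lower and 75 did not pass (28.3% and 37.5% of all genes were higher and lower). The change of the member was below that of its partner in 210 of the 244 pairs. In 79 pairs the member was lower while the partner was higher, and in 64 both were lower. As 202 of the 244 members were lower, these counts do not show that members and partners moved in opposite directions. The 2 changes had the same sign in 121 pairs in KO cells and 122 in WT cells. Their Pearson correlations over the pairs were -0.08 and -0.14. At 16 h of phenformin the partners had medians of 0.161 in KO cells and 0.216 in WT cells, beside -0.652 and -0.643 for the members of these pairs. NIPBL-AS1 changed at 4 h of phenformin by -1.80 in KO cells and -1.86 in WT cells while NIPBL changed by 0.71 and 0.65. ZEB1-AS1 changed at the same 4 h by -1.26 and -1.27 while ZEB1 changed by 0.79 and 0.76.

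The fall was seen in each arrangement on the genome. At 4 h of phenformin in KO cells the median change was -0.693 for divergent members (84 of 95 lower), -0.551 for overlapping members (113 of 135) and -0.576 for the rest (38 of 46). In WT cells it was -0.675 for divergent members (82 of 95 lower), -0.586 for overlapping members (107 of 135) and -0.615 for the rest (37 of 46). Over all genes, 39.7% were lower in KO cells and 37.5% in WT cells. Of other non-coding RNAs of like level, 58.8% and 55.8% were lower. Whether the counting used strand is not stated in the sources, and only the check of overlapping exons above bears on it.

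**Figure D4:**
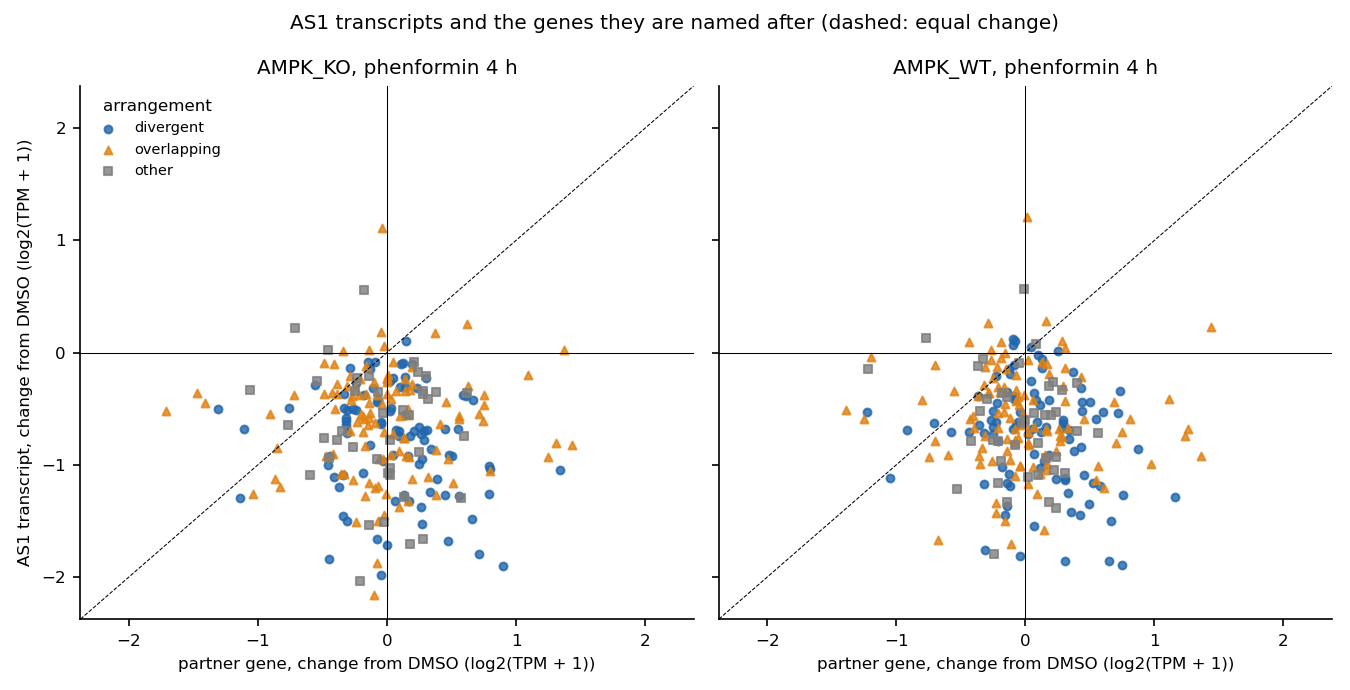
Change of each member (vertical axis) against that of the gene it is named after (horizontal axis) at 4 h of phenformin, both as differences in log2(TPM + 1), for 244 pairs in AMPK KO cells (left) and AMPK WT cells (right), with the arrangement on the genome shown by the marker. Most points lie below the dashed line of equal change, 210 of 244 in WT cells.

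Genes that turn over antisense RNA were measured in the same fits. Of 36 genes of the RNA exosome, its nuclear adaptors and nonsense-mediated decay, 33 passed the filter. At 4 h of phenformin 18 were higher and 8 lower in KO cells (median 0.16, beside -0.06 over all genes, 39.7% of which were lower). In WT cells 19 were higher and 7 lower (median 0.16, beside -0.04), where 28.3% and 37.5% of all genes were. With rotenone at 4 h, 17 were higher and 4 lower in KO cells and 19 and 3 in WT cells (28.4% and 28.5% of all genes lower). Their median was 0.17 in each arm, beside -0.004 in KO cells and 0.001 in WT cells over all genes. With CCCP at 4 h, 10 were higher and 12 lower in KO cells (median -0.02, 42.1% of all genes lower). In WT cells 14 were higher and 8 lower with CCCP (median 0.08, 35.3% of all genes lower). The medians over all genes with CCCP were -0.09 in KO cells and -0.04 in WT cells. Apart from phenformin in WT cells, the share of all genes that were higher is not given here. With 991 at 2 h the list went the other way, with 1 higher and 7 lower in KO cells (4.28% and 10.7% of all genes). In WT cells 2 were higher and 12 lower (5.94% and 11.4%). Whether these genes have a part in the fall of the members was not tested.

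With 991 in the AMPK table, members stood higher at 4 h in WT cells, which rests largely on 1 library, and many were lower later. At 4 h, the values that led to the choice of these members, the median change was -0.058 in KO cells and 0.177 in WT cells, beside 0.021 and 0.085 for protein-coding genes of like level. In KO cells 32 members had all 991 libraries above all DMSO libraries and 44 below (21.7% and 19.6% of all genes), and in WT cells 79 were above and 7 below (25% and 17.3%). The 3 WT libraries stood at medians of 0.41, 0.01 and 0.03, and their DMSO libraries of the same numbers at 0.10, -0.10 and 0.01. Without replicate 1 of the 991 group the WT median was 0.021, beside 0.055 for the protein-coding genes, and without replicate 1 of both groups it was 0.084, beside 0.066. GTSE1-AS1, divergent from a cell cycle gene, had 2.92, 1.90 and 1.84 TPM with 991 and 3.32, 1.78 and 2.05 TPM with DMSO in KO cells (-0.06), and 11, 4.93 and 4.56 TPM with 991 and 4.50, 2.46 and 3.43 TPM with DMSO in WT cells (0.74). The WT groups are separate, although 1 library is above the others, and the KO groups overlap. UBAC2-AS1 gave 0.11 in KO cells and 0.77 in WT cells, where its 991 libraries were at 12.9, 5.51 and 5.72 TPM and its DMSO libraries at 4.97, 3.36 and 3.72 TPM. SBF2-AS1 had 2.89, 2.51 and 2.80 TPM with 991 and 1.06, 1.37 and 1.34 TPM with DMSO in WT cells (0.73), with the replicates close together, and 0.21 in KO cells. PIK3IP1-AS1, which lies near the gene of an inhibitor of PI3K, gave 0.82 in WT cells. SLC25A25-AS1 went the other way, at 0.322, 0.406 and 0.36 TPM with 991 and 0.846, 0.832 and 0.779 TPM with DMSO in WT cells (-0.42, and -0.36 in KO cells).

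At the other times with 991 in the AMPK table, the share of members that were higher was below that of all genes. At 2 h, 0 members were higher and 12 lower in KO cells (4.28% and 10.7% of all genes), and 10 were higher and 14 lower in WT cells (5.94% and 11.4%). The 0 in KO cells is from limma after adjustment, where 49 members had an unadjusted p under 0.05 in either direction. At 8 h, 24 were higher and 115 lower in KO cells (30.9% and 24.3% of all genes), and 58 were higher and 83 lower in WT cells (41.3% and 22.7%). At 16 h, 30 were higher and 121 lower in KO cells (34.8% and 27.1% of all genes), and 47 were higher and 124 lower in WT cells (41.9% and 26.9%). The medians at 16 h were -0.199 in KO cells and -0.185 in WT cells, beside 0.025 and 0.099 for protein-coding genes of like level, 43.5% of which were higher in WT cells. Other non-coding RNAs of like level had a median of -0.169 in WT cells. GTSE1-AS1, higher at 4 h in WT cells, was lower at 16 h in both arms, by -1.12 in KO cells (limma, adjusted p = 1.5e-06) and -1.07 in WT cells (limma, adjusted p = 2.6e-06). MAN1B1-AS1 gave -1.71 in WT cells at 16 h.

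In the other experiments most members that changed with 991 were higher. At 2 h, 39.3% of members were higher in FNIP1 SA5 cells and 19.8% in FNIP1 WT cells (13.8% and 3.31% of all genes), 20.7% in DKO and 19.2% in TFEB/TFE3 WT cells (7.96% and 11.6%), 28.4% in ESRRA KO and 5.9% in ESRRA WT cells (10.2% and 4.66%), and 21.6% with siRNA to PGC1A and 14% with control siRNA (11.8% and 4.77%). At 16 h, 129 members were higher and 1 lower in FNIP1 SA5 cells (39.2% and 5.76% of all genes), and 60 were higher and 4 lower in FNIP1 WT cells (11.6% and 4.87%). In the TFEB/TFE3 table, 130 were higher and 1 lower in DKO cells (35.7% and 12.5% of all genes), and 160 were higher and 6 lower in WT cells (41.1% and 17.9%). In the ESRRA table, 80 were higher and 6 lower in KO cells (31.5% and 12.9% of all genes), and 57 were higher and 13 lower in WT cells (31.2% and 15%). With siRNA to PGC1A, 124 were higher and 4 lower (39.2% and 12.7% of all genes), and with control siRNA 147 were higher and 4 lower (44.6% and 12.4%).

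Beside protein-coding genes of like level, these shares were not always larger. The medians at 16 h were 0.366 in FNIP1 SA5 and 0.242 in FNIP1 WT cells (protein-coding 0.412 and 0.14), 0.301 in DKO and 0.383 in TFEB/TFE3 WT cells (0.219 and 0.222), and 0.175 in ESRRA KO and 0.098 in ESRRA WT cells (0.124 and 0.113). With siRNA to PGC1A the median was 0.281 and with control siRNA 0.334 (0.233 and 0.253). For other non-coding RNAs of like level the medians, in the same order, were 0.272 and 0.148, 0.259 and 0.319, 0.129 and 0.075, and 0.264 and 0.271. In ESRRA WT cells 21% of members and 31.9% of the protein-coding genes were higher, and with control siRNA 52.9% and 52.5%. At 8 h the members stood further off the protein-coding genes, with 161 of 276 higher in DKO cells (31% of all genes) and 160 in TFEB/TFE3 WT cells (32.8%), and medians of 0.436 and 0.404 beside 0.211 and 0.148 for the protein-coding genes. Other non-coding RNAs of like level lay nearer to the members, with medians of 0.362 and 0.294. At the same time 117 of 257 were higher in FNIP1 SA5 and 89 in FNIP1 WT cells (21.3% and 13.9% of all genes), 36.9% of members in ESRRA KO and 37.6% in ESRRA WT cells (27.3% and 27.1%), and 144 of 278 with siRNA to PGC1A and 138 with control siRNA (31.3% and 35.8%). Replicate 1 of FNIP1 SA5 cells at 8 h also stands apart, with a protein-coding median of 0.03 where the other replicates have 0.45 and 0.42. At 24 h the shares were 37% of members in DKO and 46.7% in TFEB/TFE3 WT cells (27.6% and 39.8% of all genes), 20.3% in ESRRA KO and 19.2% in ESRRA WT cells (24.2% and 24.9%), and 39.2% with siRNA to PGC1A and 37.1% with control siRNA (38.6% and 39%).

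The size of these rises changed with the scaling of the tables. Quantile normalization turned the median at 16 h in FNIP1 SA5 cells to -0.034 and that at 2 h to -0.002. Without replicate 1 of the FNIP1 SA5 DMSO group, which stands apart, 103 members were higher and 1 lower at 16 h with a median of 0.344 (protein-coding 0.174). Without that library 71 were higher and 1 lower at 2 h (median 0.311, protein-coding 0.077), and 108 higher and 4 lower at 8 h (median 0.38, protein-coding 0.061). Higher and lower members at 16 h became 44 and 9 with median-ratio scaling and 31 and 9 with quantile normalization in FNIP1 WT cells, 42 and 21 and then 32 and 23 in ESRRA WT cells, 89 and 15 with quantile normalization in TFEB/TFE3 WT cells and 43 and 13 with control siRNA. For these and the later counts under other settings the share of all genes is not given. Such counts therefore do not show whether members were called more often than all genes. In the AMPK table, quantile normalization made the falls smaller, with member medians at 4 h of phenformin of -0.359 in KO cells and -0.431 in WT cells, at 2 h of phenformin of -0.303 and -0.36, and at 4 h of CCCP of -0.279 in each arm. At 16 h of phenformin it gave -0.387 in KO cells and -0.477 in WT cells. Neither scaling changed the sign of a member median against DMSO, apart from 991 at 2 h in WT cells (-0.003, and 0.019 and 0.027 when rescaled).

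**Figure D5:**
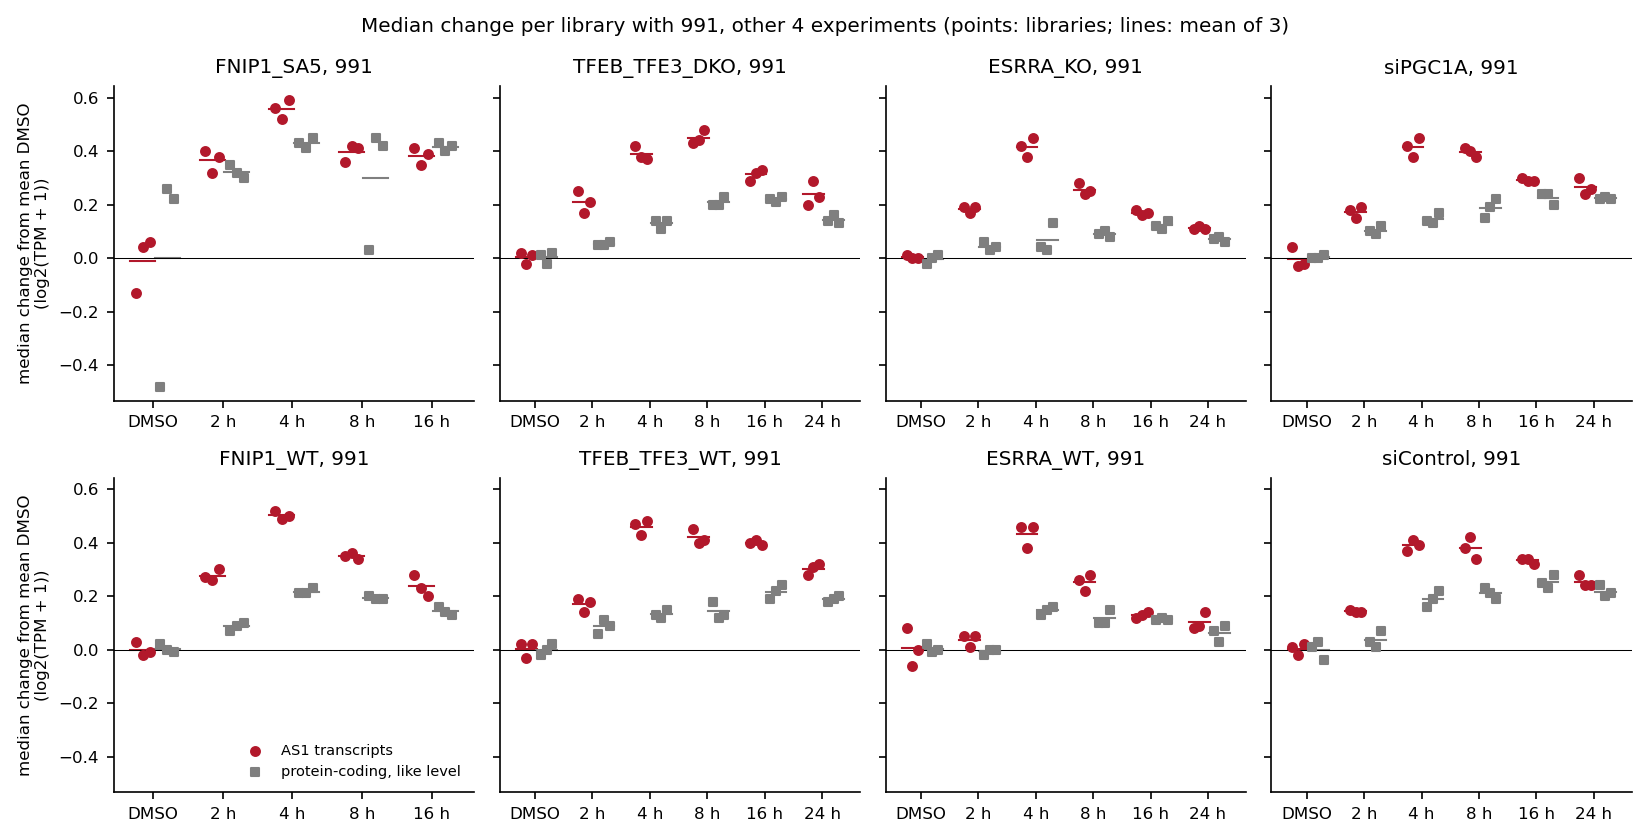
Median change of the members (red circles) and of protein-coding genes of like level (grey squares) in each library of the FNIP1, TFEB/TFE3, ESRRA and PGC1A tables with 991, as log2(TPM + 1) minus the mean of the DMSO libraries of the arm, with the altered arm in the top row and its control in the bottom row and time in hours along the axis. The members lie above 0 with 991 at 4 h in each of the 8 arms, and the first DMSO library of FNIP1 SA5 cells has a protein-coding median of -0.48 where the others have 0.26 and 0.22.

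At 4 h, again as a description, the member medians were 0.511 and 0.494 in FNIP1 SA5 and WT cells (protein-coding 0.427 and 0.22), and 0.37 and 0.45 in TFEB/TFE3 DKO and WT cells (0.126 and 0.13). They were 0.393 and 0.405 in ESRRA KO and WT cells (0.069 and 0.147), and 0.415 and 0.374 with siRNA to PGC1A and with control siRNA (0.149 and 0.187). Other non-coding RNAs of like level had medians, in the same order, of 0.46 and 0.36, 0.309 and 0.32, 0.28 and 0.269, and 0.277 and 0.237. Quantile normalization took the member medians to 0.086 and 0.279 in FNIP1 SA5 and WT cells, 0.226 and 0.301 in DKO and WT cells, 0.304 and 0.26 in ESRRA KO and WT cells, and 0.259 and 0.186 with siRNA to PGC1A and control siRNA. Members with all 991 libraries above all DMSO libraries numbered 171 and 187 of 257 in FNIP1 SA5 and WT cells (36.1% and 42.8% of all genes) and 154 and 176 of 276 in DKO and WT cells (28.4% and 31.9%). They numbered 158 and 175 of 271 in ESRRA KO and WT cells (27% and 30.3%), and 178 and 156 of 278 with siRNA to PGC1A and control siRNA (35% and 38%). GTSE1-AS1 changed by 1.00 to 1.71 in the 8 arms. It had 4.90, 4.57 and 4.79 TPM with 991 and 0.357, 0.932 and 1.06 TPM with DMSO in DKO cells, and 2.35, 2.69 and 3.92 TPM with 991 and 0.572, 0.272 and 0.471 TPM with DMSO in TFEB/TFE3 WT cells (1.46). Neither pair of groups overlaps. DNAJC3-AS1, divergent from the gene of an ER chaperone, changed by 0.99 to 1.28 in the 8 arms, UBAC2-AS1 by 0.71 to 1.28 and NIPBL-AS1 by 0.67 to 1.16.

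The control arms of the 5 tables share no library, so the same members could be followed in each at 16 h of 991. Of 233 members tested in all 5, 20 were higher in every control arm (8.58%, beside 6.36% of 12865 genes). They include ELOA-AS1, LIPE-AS1, LBX1-AS1, LRRC75A-AS1, PAXBP1-AS1, NNT-AS1 and OIP5-AS1. With 991 at 16 h, 49 of these members, 21% of the 233, were lower in AMPK WT cells and higher in TFEB/TFE3 WT cells, against 3.9% of all genes, and PHEX-AS1 alone did the opposite (2.07% of all genes). GTSE1-AS1 is one of the 49, at -1.07 in AMPK WT cells and 0.75 in TFEB/TFE3 WT cells (limma, adjusted p = 0.0003). DNAJC3-AS1 gave -0.43 and 0.75. The difference between tables itself was not tested, because each table was normalized separately.

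Of the members named for their change at 16 h of 991, NAPA-AS1, ELOA-AS1 and MAN1B1-AS1 were named in both AMPK WT and FNIP1 WT cells, and EIF3J-AS1 and BBOX1-AS1 both in ESRRA WT cells and with control siRNA. In FNIP1 WT cells NAPA-AS1, beside the gene of α-SNAP, had 3.66, 4.54 and 4.51 TPM with 991 and 0.798, 1.76 and 1.76 TPM with DMSO (1.13 ± 0.17, limma, adjusted p = 4.4e-05). In TFEB/TFE3 WT cells LAMTOR5-AS1, which faces a Ragulator subunit gene and shares 41.5% of its exon bases with a sense gene, had 3.62, 4.76 and 5.31 TPM with 991 and 0.921, 0.583 and 1.24 TPM with DMSO (1.54 ± 0.22, limma, adjusted p = 8.2e-07). BOLA3-AS1, divergent from the gene of an iron-sulfur cluster factor, had 8.92, 9.64 and 9.74 TPM with 991 and 3.14, 2.51 and 3.81 TPM with DMSO (1.34 ± 0.15, limma, adjusted p = 2.3e-08). In each case all 991 libraries are above all DMSO libraries. EIF3J-AS1 had 7.41, 6.94 and 8.17 TPM with 991 and 3.87, 3.53 and 4.26 TPM with DMSO after siRNA to PGC1A (0.80), and 6.53, 5.62 and 6.65 TPM with 991 and 2.53, 2.85 and 2.68 TPM with DMSO after control siRNA (0.98 ± 0.11, limma, adjusted p = 1.8e-08). The groups are separate in both arms. SCOC-AS1 was higher in ESRRA WT cells (0.85, limma, adjusted p = 6.6e-06), and CCNT2-AS1 lower in TFEB/TFE3 WT cells (-0.52, limma, adjusted p = 0.0025). BBOX1-AS1 was lower with control siRNA (-0.70, limma, adjusted p = 0.0038), and without replicate 1 the change was -0.40 (limma, adjusted p = 0.22).

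Under DMSO the altered arms differed from their controls in some members. AMPK KO cells had 2 members higher and 72 lower than WT cells (16.2% and 22.7% of all genes), with a median of -0.184 beside -0.1 for protein-coding genes of like level, 30.6% of which were lower. Quantile normalization gave 19 higher and 48 lower. BOLA3-AS1 had 10.4, 8.04 and 9.19 TPM in KO cells and 6.06, 5.61 and 5.92 TPM in WT cells (0.57 ± 0.11), and VPS9D1-AS1 52, 59.4 and 59.1 TPM in KO cells and 37.6, 40.3 and 40.8 TPM in WT cells (0.51 ± 0.06). These 2 were the members higher in KO cells. PHEX-AS1, which lies across the gene of a phosphate-regulating endopeptidase, had 0.393, 0.81 and 0.6 TPM in KO cells and 2.63, 4.23 and 3.84 TPM in WT cells (-1.50 ± 0.11, limma, adjusted p = 4.4e-20). In another pair of lines it stood at 0, 0.061 and 0 TPM in FNIP1 SA5 cells and 1.01, 1.16 and 1.41 TPM in FNIP1 WT cells (-1.10). In both pairs the WT libraries alone meet the filter and none of the altered arm reaches 1 TPM. The second difference therefore adds no support to the first. PHEX-AS1 was tested in the other 3 tables too, but was not called between their arms under DMSO.

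TFEB/TFE3 DKO cells had 61 members higher and 14 lower than WT cells under DMSO (37.6% and 13.7% of all genes), and 44 and 24 with median-ratio scaling or 37 and 23 with quantile normalization. LBX2-AS1 had 1.99, 2.10 and 2.27 TPM in DKO cells and 0.908, 0.8 and 0.9 TPM in WT cells (0.74, limma, adjusted p = 4.8e-08), and TMEM161B-AS1 2.57, 3.57 and 3.90 TPM in DKO cells and 6.18, 6.03 and 6.01 TPM in WT cells (-0.72). Neither shows an overlap. With siRNA to PGC1A, 39 were higher and 7 lower (14.3% and 9.89% of all genes), with a median of 0.111 beside -0.018 for protein-coding genes of like level. SCAMP1-AS1 had 7.62, 6.10 and 7.82 TPM with siRNA to PGC1A and 4.62, 2.94 and 4.62 TPM with control siRNA (0.70 ± 0.11, limma, adjusted p = 1.9e-05), again without overlap, and DHRS4-AS1 changed by -0.67 (limma, adjusted p = 7.6e-07). ESRRA KO cells had 8 members higher and 10 lower (6.71% and 14.7% of all genes), and 11 and 9 or 12 and 7 when rescaled. ATP6V0E2-AS1, beside the gene of a V-ATPase subunit, had 1.47, 1.14 and 1.47 TPM in KO cells and 2.99, 2.44 and 2.34 TPM in WT cells (-0.60, limma, adjusted p = 7.5e-05). FNIP1 SA5 cells had 3 members higher and 14 lower (1.69% and 8.64% of all genes), and 1 and 7 without DMSO replicate 1. Rescaling turned this split to 6 higher and 2 lower or 8 and 2.

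The response itself was compared between arms as a difference of differences. For CCCP at 16 h, 22 members were higher and 13 lower in the response of KO cells than of WT cells (10.5% and 17.7% of all genes), and 41 and 9 with quantile normalization. THAP9-AS1 had 30.6, 32.8 and 35.3 TPM with CCCP and 15.9, 13.8 and 13.6 TPM with DMSO in KO cells, and 17.5, 17.9 and 16.8 TPM with CCCP and 17.4, 13.7 and 15.4 TPM with DMSO in WT cells (0.97, limma, adjusted p = 3.0e-12). The CCCP libraries lie well above DMSO in KO cells, and the WT groups overlap. LOXL1-AS1 had 1.46, 1.06 and 1.12 TPM with CCCP and 1.61, 1.54 and 1.42 TPM with DMSO in KO cells, and 4.31, 4.27 and 4.17 TPM with CCCP and 2.55, 3.37 and 2.82 TPM with DMSO in WT cells (-0.62, limma, adjusted p = 3.6e-05). At 4 h of CCCP, 4 responses were higher and 47 lower in KO cells (6.8% and 20.8% of all genes).

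For phenformin at 16 h, 3 responses were higher and 15 lower in KO cells (3.38% and 10.5% of all genes), and 8 and 7 with quantile normalization. MNX1-AS1, divergent from the gene of a motor neuron homeobox factor, had 2.52, 2.32 and 3.11 TPM with phenformin and 8.33, 7.40 and 7.37 TPM with DMSO in KO cells, and 4.98, 4.79 and 4.65 TPM with phenformin and 6.87, 5.97 and 6.86 TPM with DMSO in WT cells. It fell in both arms, further in KO cells (-0.88, limma, adjusted p = 1.9e-05). For 991 at 16 h, 2 were higher and 10 lower in KO cells (4.96% and 10% of all genes), and 7 and 9 with quantile normalization. PHEX-AS1 had 0.452, 0.518 and 0.468 TPM with 991 in KO cells and 6.22, 6.12 and 5.22 TPM with 991 in WT cells, and its responses differed by -0.71 (limma, adjusted p = 0.0006). For rotenone at 16 h no response of a member differed after adjustment with limma (1.01% and 0.962% of all genes were higher and lower), and 23 members had an unadjusted p under 0.05.

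In the other tables, 4 responses to 991 at 16 h were higher and 11 lower in DKO cells than in TFEB/TFE3 WT cells (5.74% and 6.91% of all genes), and 2 and 12 with quantile normalization. RORA-AS1, which overlaps a nuclear receptor gene, had 1.35, 1.93 and 1.94 TPM with 991 and 1.55, 1.30 and 0.646 TPM with DMSO in DKO cells, and 1.65, 1.52 and 2.75 TPM with 991 and 0.073, 0.346 and 0.08 TPM with DMSO in WT cells (-0.98, limma, adjusted p = 0.031). The DKO groups overlap and the WT groups do not. Between ESRRA KO and WT cells, 2 responses were higher and 1 lower in KO cells (1.31% and 1.53% of all genes), and 1 and 1 with quantile normalization. No response of a member differed between FNIP1 SA5 and WT cells or between siRNA to PGC1A and control siRNA after adjustment with limma, where 0.00751% of all genes were called in each direction in the first and 0.0149% and 0.187% in the second. There were 36 members with an unadjusted p under 0.05 in the first comparison and 16 in the second.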

How the data were processed

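Polyadenylated RNA was measured in 240 libraries in 80 groups of 3. Per the labels' protocols, cells grew in DMEM with 10% FBS and the RNeasy Plus kit was used for RNA. Tools and build, per the submitters' processing notes, were FastQC, STAR, HOMER and GRCh38, with no versions given in the sources used here. The authors deposited 5 tables of TPM, each normalized separately, with no read counts, so the depth per library is unknown. Differences among the 3 libraries within groups are the sole measure of error. They were pooled over all groups of a table, which in the AMPK table hold 102 libraries. The p-value of a comparison of 3 with 3 libraries therefore does not rest on those libraries alone. The listed genes summed to between 396341 and 449208 TPM per library.

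Libraries were grouped by the tags and codes of the labels. In each table, genes with at least 1 TPM in at least 3 libraries were kept (13317 to 13746 genes), and 1 mean per group was fitted to log2(TPM + 1) with limma 3.58.1 in R 4.3.3, with a variance trend and Benjamini-Hochberg adjustment over all genes of the table, in 110 contrasts. Like-level genes are those whose mean lies between the 25th and the 75th percentile of the members. Members were paired with the gene of the same stem and with RefSeq promoters by symbol, accession or older symbol. Motif searches and figures used Python 3.11.15 and matplotlib 3.10.9.

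The members, the gene lists, the panel and the tests were chosen with earlier results of these data known. Members named are the panel, up to 4 higher and 4 lower per comparison with adjusted p under 0.05 and groups that do not overlap (up to 2 each way, without that demand, for differences of responses), those named for 991 at 4 h, and up to 4 each way that changed with all 4 compounds. Of these the text describes a part, the results of 1 are not reported here, and the list of members higher in every control arm was named after its values were seen. Other settings tried were a pseudocount of 0.1, no filter, median-ratio scaling, only the groups compared, quantile normalization, a replicate block, each replicate number left out, a wider band of like-level genes, members with a mean of at least 1 TPM, and 3 settings that leave out libraries that stand apart. Some of these were chosen after seeing the data. They are the settings without replicate 1 of AMPK WT at 4 h of 991 and the mean of at least 1 TPM. The others are the leaving out of replicates for medians and of the second FNIP1 SA5 library, replicate 1 at 8 h of 991. The fits were tested on simulated data.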

Additional observations from a re-analysis of the deposited data

Results flagged for a closer look

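The following members differed between arms in their response at 16 h by a test of the difference itself (limma, Benjamini-Hochberg adjusted over all genes of the table, altered arm minus control arm, log2 scale). For 991 in AMPK KO against WT cells, SP2-AS1 gave 0.45 (adjusted p = 0.035), VPS9D1-AS1 0.27 (adjusted p = 0.013), DCST1-AS1 -0.71 (adjusted p = 0.0013) and PHEX-AS1 -0.71 (adjusted p = 0.0006). DCST1-AS1 had 1.83, 1.69 and 1.55 TPM with 991 and 1.89, 1.69 and 2.21 TPM with DMSO in KO cells, and 2.90, 3.19 and 3.43 TPM with 991 and 1.81, 1.90 and 1.6 TPM with DMSO in WT cells, where the groups do not overlap. SP2-AS1 and VPS9D1-AS1 missed the threshold with any 1 replicate number left out (adjusted p 0.09 to 0.22 and 0.058 to 0.11), and DCST1-AS1 without replicate 3 (adjusted p = 0.16).

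For CCCP, THAP9-AS1 gave 0.97 (limma, adjusted p = 3.0e-12), CELSR3-AS1 0.81 (adjusted p = 0.0088), LAMTOR5-AS1 -0.80 (adjusted p = 0.0062) and LOXL1-AS1 -0.62 (adjusted p = 3.6e-05). CELSR3-AS1 stood at 1.00, 1.32 and 0.28 TPM with CCCP and 0.158, 0.065 and 0.079 TPM with DMSO in KO cells, and at 0.923, 0.696 and 0.936 TPM with CCCP and 0.989, 0.658 and 1.30 TPM with DMSO in WT cells, so the WT groups overlap. It missed the threshold without replicate 2 (adjusted p = 0.16), and LAMTOR5-AS1 without replicate 1 or 3 (adjusted p = 0.074 and 0.065). For phenformin, RTCA-AS1 gave 0.67 (adjusted p = 0.037), CARD8-AS1 0.54 (adjusted p = 0.031), MNX1-AS1 -0.88 (adjusted p = 1.9e-05) and SRP14-AS1 -0.74 (adjusted p = 0.0038). SRP14-AS1 had 1.5, 2.17 and 1.63 TPM with phenformin and 2.58, 2.18 and 2.48 TPM with DMSO in KO cells, and 3.82, 3.28 and 3.24 TPM with phenformin and 1.93, 2.23 and 2.75 TPM with DMSO in WT cells, so the groups are separate in both arms and lie in opposite order. It missed the threshold without replicate 1 (adjusted p = 0.12), and RTCA-AS1 and CARD8-AS1 without replicate 2 or 3 (adjusted p 0.24 to 0.37 and 0.082 to 0.51).

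For 991 in TFEB/TFE3 DKO against WT cells, TMEM161B-AS1 gave 0.81 (limma, adjusted p = 0.025), ATE1-AS1 0.72 (adjusted p = 0.037), RORA-AS1 -0.98 (adjusted p = 0.031) and MID1IP1-AS1 -0.89 (adjusted p = 0.039). For 991 in ESRRA KO against WT cells, ZNF674-AS1 gave 0.58 (adjusted p = 0.044), THAP7-AS1 0.45 (adjusted p = 0.025) and SCOC-AS1 -0.78 (adjusted p = 0.021). SCOC-AS1 had 1.11, 0.917 and 1.11 TPM with 991 and 0.757, 0.665 and 1.52 TPM with DMSO in KO cells, which overlap, and 1.58, 1.52 and 1.6 TPM with 991 and 0.557, 0.271 and 0.451 TPM with DMSO in WT cells, which do not. Each of these 7 missed the threshold with at least 1 replicate number left out, with adjusted p up to 0.28 for TMEM161B-AS1, 0.32 for ATE1-AS1, 0.31 for RORA-AS1, 0.32 for MID1IP1-AS1, 0.49 for ZNF674-AS1, 0.20 for THAP7-AS1 and 0.28 for SCOC-AS1.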

How the results depend on the processing

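The medians against DMSO kept their sign, apart from those at 2 h and 16 h of 991 in FNIP1 SA5 cells with quantile normalization and at 2 h in AMPK WT cells with either rescaling, given above, and the median of FNIP1 SA5 against WT cells under DMSO, -0.129, became 0.112 with median-ratio scaling and 0.198 with quantile normalization. In ESRRA KO cells under DMSO, -0.039 became 0.007 with quantile normalization. Restricting the members to a mean of at least 1 TPM gave medians of -0.764 at 16 h and -0.765 at 4 h of phenformin in AMPK KO cells, 0.426 at 16 h of 991 in TFEB/TFE3 WT cells and 0.210 in ESRRA KO cells. With median-ratio scaling, medians at 16 h of 991 became 0.1 in FNIP1 SA5, 0.187 in FNIP1 WT, 0.195 in DKO, 0.314 in TFEB/TFE3 WT, 0.119 in ESRRA KO, 0.186 with siRNA to PGC1A and 0.207 with control siRNA, and at 4 h 0.293 in FNIP1 SA5, 0.401 in FNIP1 WT, 0.403 in TFEB/TFE3 WT, 0.345 with siRNA to PGC1A and 0.304 with control siRNA. In ESRRA KO cells leaving out 1 replicate number gave 4 h medians between 0.366 and 0.447. Scaling moved the median of all genes by -0.090 to 0.111 in the AMPK table and by -0.367 to 0.301 in the FNIP1 table.

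Counts of members called moved as follows. Differences of response at 16 h were 12 for 991 in AMPK KO against WT cells (7 with a pseudocount of 0.1, 4 to 28 with a replicate number left out), 35 for CCCP (10 to 55), 18 for phenformin (4 to 29) and 0 for rotenone (1 with only the groups compared, 2 with quantile normalization, 0 to 8), and 15 in the TFEB/TFE3 table (6 with no filter, 4 to 6), 3 in the ESRRA table (1 with only the groups compared, 0 to 2) and 0 in the FNIP1 table (1 without DMSO replicate 1 and 8 h replicate 1 of SA5). Members called under DMSO were 74 in AMPK KO (46 with only the groups compared, 33 to 112), 17 in FNIP1 SA5 (8 with median-ratio scaling or without SA5 DMSO replicate 1, 10 with quantile normalization, 0 with only the groups compared, 2 to 16), 18 in ESRRA KO (8 with only the groups compared, 7 to 14) and 46 with siRNA to PGC1A (28 with only the groups compared, 23 to 36). Members called at 16 h of 991 were 64 in FNIP1 WT (114 with only the groups compared, 40 with quantile normalization, 16 to 96), 166 in TFEB/TFE3 WT (104 with quantile normalization, 130 to 140), 70 in ESRRA WT (44 to 49) and 151 with control siRNA (100 with median-ratio scaling, 56 with quantile normalization).

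Replicate numbers are shared by the groups but are not said to pair them. In the AMPK table, the deviations of libraries of the same number had a mean correlation of 0.09 (-0.19 to 0.69, and a mean of -0.04 for other numbers), with 582 of 1683 pairs over 0.1. There 75 libraries were closest to their own number, which is a hint from the data and not from the design, and under DMSO replicate 1 had the highest member median in both arms (0.17 in KO and 0.10 in WT cells). With the replicate block the responses to 991 that differed between AMPK arms numbered 21 and those to rotenone 2, and all 152 calls of named members held. Of the 152, calls missed the threshold for 3 with median-ratio scaling, 6 each with quantile normalization and a pseudocount of 0.1, 9 with no filter, 22 with only the groups compared and 24 to 34 with a replicate number left out.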
